A study of Mus musculus with 58 samples.

Results

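Glucocorticoids are adrenal steroid hormones whose blood level can rise when food is restricted, and 8 genes that carry or report their signal were followed across every RNA library of a mouse haematopoietic stem cell (HSC) study of caloric restriction (CR). The 8 genes were taken from a list of symbols: Nr3c1, which encodes the glucocorticoid receptor, and 7 genes known to respond to it, Fkbp5, Tsc22d3, Klf9, Zbtb16, Sgk1, Mt1 and Mt2. They are 8 of the 55376 genes counted in each of 34 libraries, and each of the 8 had counts in all 34. No hormone was measured in the files used here.

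The receptor waits in the cytoplasm bound to heat shock proteins and FKBP co-chaperones, enters the nucleus when it binds hormone and acts on DNA at short palindromic glucocorticoid response elements (GREs). Its targets include genes that damp the signal itself, and Fkbp5 and Tsc22d3 are widely used as read-outs of hormone exposure in blood cells. The metallothionein genes Mt1 and Mt2 answer both to glucocorticoids and, through the zinc sensor MTF1 and its metal response elements (MREs), to zinc and other metals.

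The diet libraries came from HSCs sorted from bone marrow of male C57BL/6 mice. Old mice of 24–26 months had been fed ad libitum for life (OAL, 4 libraries), kept on 40% CR from the age of 3–4 months (OCR, 4 libraries), or returned to free feeding for 4 weeks after lifelong CR (OCRRF, 2 libraries). Young mice of 3–4 months were fed ad libitum (YAL, 4 libraries), kept on short-term CR of 20% in the first week and 40% for another 3 weeks (YCR, 4 libraries), or refed for 4 weeks after it (YCRRF, 4 libraries). The other 12 libraries came from HSCs of aged donors that were transduced with lentiviral shRNA, transplanted into lethally irradiated young female recipients and sorted again as donor-derived HSCs. These held a GFP scramble control (2 libraries), Kdr shRNA (4), a double scramble control (2), and Kdr shRNA together with 1 of 2 Bmpr1a shRNAs (2 libraries for each shRNA, taken as 1 group of 4). Kdr encodes the VEGF receptor FLK1 and Bmpr1a a BMP receptor. All transplanted groups shared irradiation of the host and transduction of the donor cells, and the diet and transplant libraries differed in RNA extraction and sequencer, so no value was compared across them.

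Libraries held between 11102898 and 44780217 counts. Old diet libraries had counts for 42071 to 46646 genes and young diet libraries for 22209 to 33496, so age cannot be told apart from library complexity. All 7 HSC markers reported (Procr, Slamf1, Hlf, Mecom, Kit, Ly6a and Fgd5) had a mean of at least 1 CPM (the usual unit of counts scaled to library size, here with TMM factors) in every group, and their summed level was 2597 to 3557 CPM in the diet libraries and 2097 to 2788 CPM after transplantation. These are bulk samples, in which fewer cells of a type and less RNA per cell cannot be told apart. The labels do not say which animals each library came from. The study counts the diet libraries as samples from mice, without saying whether mice were pooled, so p-values measure the spread between libraries. A gene is called when its edgeR adjusted p is under 0.05 and its fold change is over 1.2. These are the thresholds of the study for the diet comparisons, while for the knockdowns it set the same fold beside an unadjusted p, and counts at that limit are given there too.

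Per kilobase of exon, Tsc22d3 and Mt1 had the highest means of the 8 genes in each of the 6 diet groups, and Zbtb16 and Sgk1 had the lowest. Exon length was the union over all annotated transcripts of a gene. For Mt1 that union was 1246 bases, its whole span, which lowers its value, so its place in the order depends on the annotation. Comparisons of 1 gene between groups do not depend on it. In YAL, Tsc22d3, which encodes the anti-inflammatory leucine zipper protein GILZ, had 80.9 ± 15.0 RPKM (CPM per kilobase of exon, mean ± SD, n = 4). Mt1 came next in YAL at a mean of 26.3 RPKM, above Nr3c1, Klf9 and Fkbp5 at 15.0, 13.7 and 11.6 RPKM, whose library values overlapped. Mt2 stood below them at 4.49 RPKM, and Zbtb16 and Sgk1, at 1.63 and 1.15 RPKM, were not separated by their spread. The order was different in OAL, where Mt1 led with 111 ± 12.4 RPKM (n = 4) and Mt2, at a mean of 52.5 RPKM, overlapped Tsc22d3 at 58.5 RPKM. In OCR, Tsc22d3 (53.4 RPKM) and Mt1 (52.4 RPKM) overlapped and Mt2 stood apart below them at 20.0 RPKM. In OCRRF, Mt1 led with 73.1 RPKM over Tsc22d3 at 50.3 RPKM. With both Kdr and Bmpr1a shRNAs the order was another one, since Fkbp5 (17.0 RPKM) had a higher mean than Mt1 (14.3 RPKM) and Mt2 was last at 2.79 RPKM, each overlapping its neighbour in the order.

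**Figure D1:**
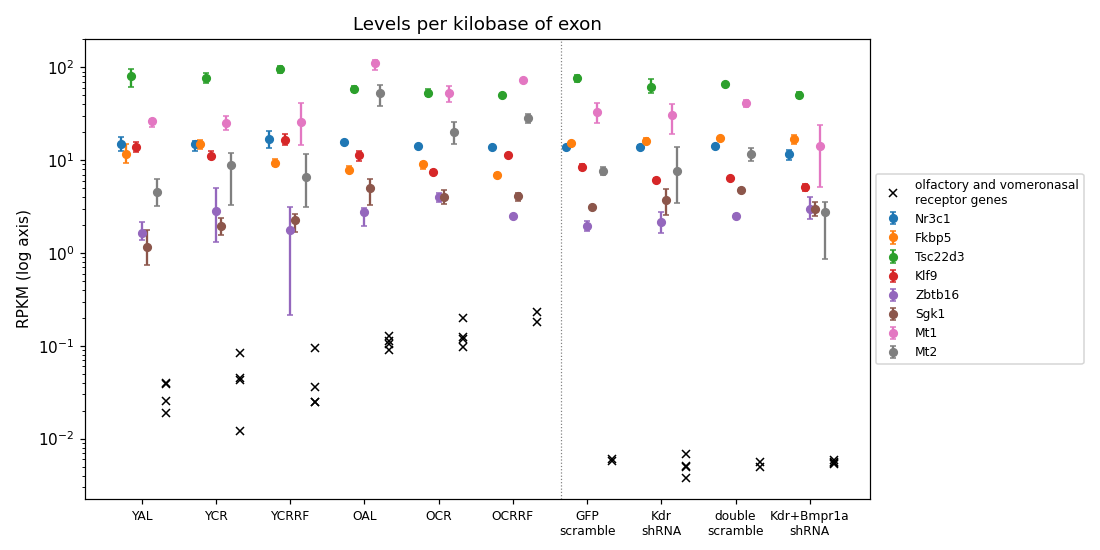
Mean level per kilobase of exon (RPKM, log axis) of the 8 genes in the 6 diet groups (left of the dotted line) and the 4 transplant groups (right), with bars from the lowest to the highest library; crosses are the level of 1434 olfactory and vomeronasal receptor genes in each library, as a background. Mt1 and Mt2 sit higher in the old groups, with Mt1 at 111 RPKM in OAL against 26.3 RPKM in YAL, and every library value of the 8 genes lies above the crosses of its group.

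Olfactory and vomeronasal receptor genes, which HSCs do not use, gave a background of 0.0121 to 0.0949 RPKM in the young and 0.0906 to 0.231 RPKM in the old diet libraries. The lowest library value of a member was 2.25 times the highest background value of its group in YCRRF, for Zbtb16, and at least 10.5 times in every other case.

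Lifelong CR was compared with lifelong ad libitum feeding to ask which of the genes differ under restriction in old HSCs. Mt1, Mt2 and Klf9 were lower and Zbtb16 was higher in OCR than in OAL, and the receptor gene Nr3c1 and the read-outs Fkbp5 and Tsc22d3 were not called. Thus 4 of the 8 genes were called (1 higher and 3 lower), against 5.57% of the 27150 genes tested (2.54% higher and 3.03% lower), and 5 did not overlap between groups, against 11.4% of all genes. The median log2 fold change of the 8 was −0.20, beside 0.02 over all genes tested.

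The largest changes were in the metallothioneins, small cysteine-rich proteins that bind zinc and copper. Mt1 lies at chr8:94179082-94180327 and Mt2 at chr8:94172664-94173568 (mm10, plus strand). The bases before their RefSeq starts are printed because both windows hold letters of MREs and that of Mt1 also those of a GRE. Capitals mark MRE cores (TGCACNC or TGCGCNC on either strand) and, in Mt1, the letters GNACANNNTGTNC of a GRE (the pattern reads the same on both strands). The Mt2 stretch is chr8:94172368-94172617 and the Mt1 stretch is chr8:94178839-94179081, plus strand, GRCm38.p6 (the patched mm10 assembly).
Mt1: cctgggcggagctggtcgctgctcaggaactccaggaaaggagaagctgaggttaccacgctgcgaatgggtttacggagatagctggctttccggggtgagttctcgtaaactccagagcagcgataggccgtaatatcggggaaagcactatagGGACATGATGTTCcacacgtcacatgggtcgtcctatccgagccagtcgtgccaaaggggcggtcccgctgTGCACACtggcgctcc
Mt2: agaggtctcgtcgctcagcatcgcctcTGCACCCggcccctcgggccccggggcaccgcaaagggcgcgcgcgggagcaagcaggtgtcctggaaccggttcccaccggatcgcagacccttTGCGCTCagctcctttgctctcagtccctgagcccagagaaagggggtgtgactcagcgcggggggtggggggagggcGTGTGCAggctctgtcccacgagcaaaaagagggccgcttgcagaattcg
In the 300-base RefSeq promoter windows, of which the printed stretches are the upstream part, Mt1 held 3 MRE cores and Mt2 held 4. At least 3 cores were in 1.97% and at least 4 in 0.517% of the 32851 promoters. The Mt1 window held 1 match to the GRE letters, at chr8:94178995-94179007, starting at position −94 from the start site, and 0.475% of all promoters held one. A match describes letters only and is not a shown binding site.

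Mt1 had 116, 140.0, 148 and 150.1 CPM in the 4 OAL libraries and 60.8, 77.6, 69.7 and 53.1 CPM in the 4 OCR libraries. Every OCR library was below every OAL library, and Mt1 fell 2.1-fold (log2 fold change −1.07, SE 0.102, edgeR adjusted p = 2.09e-08). Mt2 had 22.3, 28.7, 35.1 and 37.4 CPM in OAL and 10.3, 12.9, 15.2 and 8.78 CPM in OCR. The groups did not overlap here either, and Mt2 fell 2.59-fold (log2 fold change −1.38, SE 0.153, edgeR adjusted p = 3.29e-07). Mt2 is the less certain of the pair, since its exons overlap those of the antisense transcript Gm45774, with which 45.8% of its 50-base stretches are shared in reverse complement, and the strand setting of the counting is not stated. Gm45774 had 17.0 to 26.2 CPM in OAL and 6.33 to 12.0 CPM in OCR. Mt1 and Mt2 share no 50-base stretch.

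Klf9 encodes a Krüppel-like transcription repressor that links glucocorticoid signalling to circadian control of proliferation (chr19:23141226-23168134, plus strand). Its levels were 60.2, 53.3, 47.7 and 57.2 CPM in OAL and 34.9, 37.2, 38.2 and 34.4 CPM in OCR. The highest OCR library was below the lowest OAL library, and Klf9 fell by 0.58 on the log2 scale (SE 0.0929, 1.49-fold, edgeR adjusted p = 9.84e-05). Klf9, Mt1 and Mt2 were called in all 8 fits that left out 1 OAL or OCR library.

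Zbtb16 encodes PLZF, a zinc finger repressor of lymphoid and stem cell programmes that is strongly induced by glucocorticoids in several tissues (chr9:48654297-48836222, minus strand). Its levels were 16.1, 15.6, 16.0 and 10.4 CPM in OAL and 21.8, 18.5, 20.3 and 23.1 CPM in OCR. All OCR libraries were higher, and Zbtb16 rose 1.46-fold (log2 fold change 0.54, SE 0.133, edgeR adjusted p = 0.0107). The lowest of these libraries, OAL 4, carries part of the difference: without it the log2 fold change was 0.41 with an adjusted p of 0.0732. In 1 fit of all 22 diet libraries, which share 1 estimate of the spread, Klf9 and Mt1 were still called while Zbtb16 (adjusted p = 1.00) and Mt2 (0.0901) were not.

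The remaining genes moved less. Fkbp5, whose product holds the receptor in a state of low hormone affinity (chr17:28399094-28517527, minus strand), had 74.0, 71.0, 82.3 and 70.1 CPM in OAL and 85.0, 90.1, 76.9 and 88.0 CPM in OCR. One OCR library lay within the OAL range, and the log2 difference of 0.21 (95% interval 0.03 to 0.39) was not called (adjusted p = 0.191). Nr3c1 had 115, 125, 122 and 114 CPM in OAL and 107, 110.1, 106 and 113 CPM in OCR. The OCR values were all below the OAL values (two-sided exact permutation p = 0.0286, the smallest that 4 against 4 allows), but the log2 difference of −0.11 (95% interval −0.27 to 0.05) was not called (edgeR adjusted p = 0.551). Tsc22d3 (chrX:140539528-140600659, minus strand) ranged from 237 to 271 CPM in OAL and from 213 to 252 CPM in OCR, with a log2 difference of −0.12 (SE 0.0809, adjusted p = 0.542). Sgk1 encodes a kinase that regulates ion transport and survival (chr10:21882184-21999903, plus strand). It had 30.5, 25.9, 16.2 and 25.5 CPM in OAL and 16.5, 23.3, 20.3 and 19.3 CPM in OCR. The groups overlapped only because of OAL 3, without which Sgk1 was called lower (log2 fold change −0.45, adjusted p = 0.0364) in place of −0.29 with an adjusted p of 0.324 over all libraries.

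**Figure D2:**
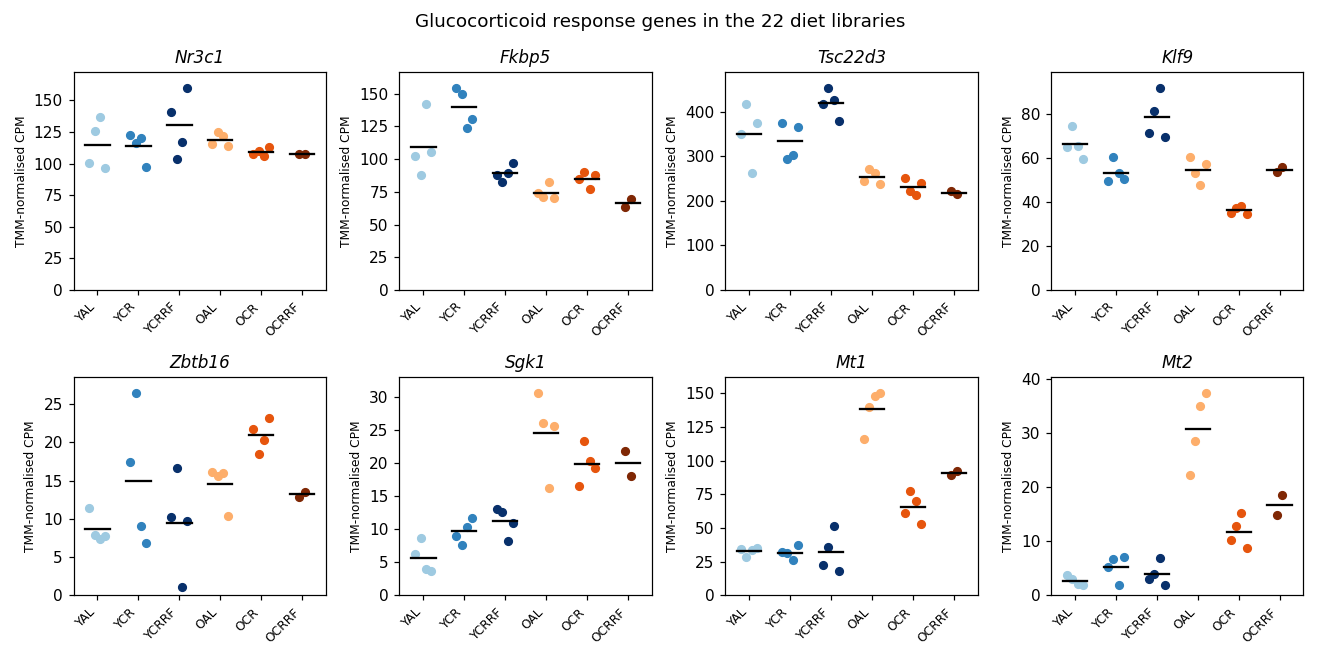
Level of each of the 8 genes (TMM-normalised CPM, linear axes from 0) in the 22 diet libraries; points are libraries and black lines are group means. Mt1 means are 139, 65.3 and 91.0 CPM in OAL, OCR and OCRRF, and the Zbtb16 value of 1.13 CPM is 1 YCRRF library.

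Markers of handling and of other cells moved with the same comparison. The summed level of 9 immediate early and heat shock genes that respond to cell handling was 256.5 to 404.1 CPM in OAL and 156 to 245.6 CPM in OCR, without overlap, and 3 of the 9 fell (Jun, Junb and Ier2). The sum of 7 erythroid markers was 35.2 to 229.7 CPM in OAL and 32.0 to 69.1 CPM in OCR, and 4 of the 7 fell. The sum of 6 T, NK and innate lymphoid markers was 58.7 to 70.2 CPM in OAL and 40.7 to 54.2 CPM in OCR. That sum was led by Klrb1c, which fell from a mean of 53.0 to 27.1 CPM, while Nkg7 rose from 11.1 to 19.3 CPM. Of the HSC markers, 3 of 7 were also called lower in OCR (Procr, Ly6a and Fgd5). Over all genes tested 3.03% were called lower. The part of these differences in the results above was not tested.

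Other genes of the pathway were taken as lists of genes known to belong to it, chosen with earlier results of these data known. Among 20 genes for receptor partners, hormone metabolism and coregulators, 4 rose in OCR against OAL and 1 fell, with a median log2 fold change of 0.12. The called share of that list was 25%, where 5.57% of all genes tested were called. The 4 that rose all encode chaperones of the receptor complex: Hspa8 (mean 903 CPM in OAL and 1295 CPM in OCR, log2 fold change 0.54, edgeR adjusted p = 0.00687), Stip1 (0.40), Fkbp4 (0.37) and Hsp90aa1 (0.34). The 1 that fell was Nr3c2, the mineralocorticoid receptor, which also binds glucocorticoids (log2 fold change −0.46, adjusted p = 0.0182). Of 42 other genes commonly induced by glucocorticoids 41 were tested, and 2 rose while 9 fell (26.8% called), with a median of −0.15. The largest of these falls was Pdk4, a kinase that blocks pyruvate oxidation in fasting, from a mean of 9.90 CPM in OAL to 1.85 CPM in OCR (log2 fold change −2.40, SE 0.215, adjusted p = 7.76e-09). Txnip, an inhibitor of glucose uptake, fell from 2333 to 1092 CPM (log2 fold change −1.08). Cebpb, a transcription factor of myeloid cells (−0.97), Angptl4, an inhibitor of lipoprotein lipase (−0.89), and Arrdc3, an arrestin family member (−0.83), fell as well. None of the 14 commonly repressed genes tested (of 16) was called. Among 21 tested genes for metal response and zinc transport (of 22), the zinc importer gene Slc39a10 rose (log2 fold change 0.43, adjusted p = 0.0116) and Slc30a1, a zinc exporter that MTF1 induces, fell (−0.58, adjusted p = 0.0149). The called share of that list was 9.52%.

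**Figure D3:**
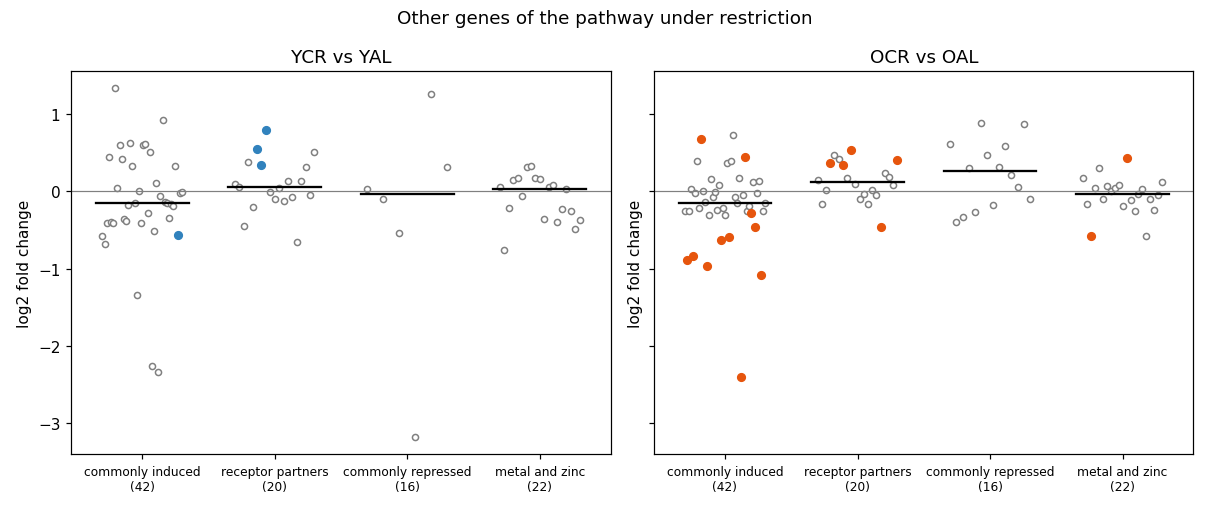
Log2 fold change of each tested gene of 4 pathway lists in YCR against YAL and in OCR against OAL; filled points are called, open points are not, and black lines are list medians. In OCR against OAL 9 of the 41 tested commonly induced genes are called lower and 2 higher, and 4 of the 20 receptor partners are called higher. Over all genes tested 3.03% are called lower and 2.54% higher.

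Short-term CR was examined in young mice to separate restriction from old age. None of the 8 genes was called between YCR and YAL by edgeR, where 0.364% of 18680 genes were called. None was called by DESeq2, where 452 of all genes were called. At an unadjusted p under 0.05 there were 3 of 8, against 9.29% of all genes, and the groups overlapped for all 8, where 6.32% of all genes stood apart. The median log2 difference was 0.19, beside 0.00 over all genes.

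Fkbp5 had 102, 88.0, 142 and 105 CPM in YAL and 154, 150.0, 124 and 131 CPM in YCR. Only YAL 3 reached into the YCR range, and the log2 difference was 0.37 (95% interval 0.06 to 0.68, adjusted p = 0.425). Klf9 had 65.1, 74.6, 65.4 and 59.4 CPM in YAL and 49.3, 60.2, 53.2 and 50.4 CPM in YCR. The ranges touched at 1 library of each group, with a log2 difference of −0.30 (95% interval −0.58 to −0.02, adjusted p = 0.501). Sgk1 had 6.20, 8.69, 3.98 and 3.62 CPM in YAL and 8.90, 7.57, 10.4 and 11.7 CPM in YCR, and its log2 difference of 0.79 (95% interval 0.06 to 1.53) was not called either (adjusted p = 0.486). The Sgk1 values overlapped through 1 library of each group, as for Klf9.

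Zbtb16 varied more in YCR (17.4, 26.4, 9.10 and 6.87 CPM) than in YAL (11.4, 7.87, 7.37 and 7.79 CPM), and its log2 difference of 0.81 (95% interval −0.06 to 1.68) left the direction unsettled. Mt1 lay between 28.0 and 34.8 CPM in YAL and between 26.2 and 37.0 CPM in YCR, with a log2 difference of −0.03 (95% interval −0.40 to 0.33). That interval excludes a fall of the size seen for Mt1 in old mice. Mt2 was low in both groups, at 1.87 to 3.66 CPM in YAL and 1.94 to 7.06 CPM in YCR, with a log2 difference of 1.01 (95% interval −0.02 to 2.04, adjusted p = 0.558). Nr3c1 (log2 difference 0.00, 95% interval −0.27 to 0.28) and Tsc22d3 (−0.06, −0.35 to 0.24) were centred near no difference.

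Of the pathway lists, the receptor partners had 3 genes that rose in YCR, of 19 tested: Hspa8, from a mean of 1230 to 2117 CPM (log2 fold change 0.80, edgeR adjusted p = 0.0101), Hsp90aa1 (0.55, adjusted p = 0.0149) and Hsp90ab1 (0.34). Txnip was the only called gene among 38 tested induced genes and fell by 0.57 on the log2 scale (adjusted p = 0.0474). The called shares were 15.8% of the receptor partners and 2.63% of the induced genes, where 0.364% of all genes were called. Pdk4 had a mean of 8.37 CPM in YAL and 1.64 CPM in YCR but was not called (adjusted p = 0.411). The summed B and plasma cell markers were 82.4 to 165.4 CPM in YAL and 75.1 to 593.4 CPM in YCR, led in YCR by Jchain. Their part in these values was not tested.

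The difference between the effect of lifelong CR and that of short-term CR was tested with an interaction term. It was negative for all 8 genes, with a median of −0.27 beside −0.04 over all genes. None was called by edgeR, where 0.0318% of 28328 genes were called, while 3 of 8 had an unadjusted p under 0.05 against 8.8% of all genes. For Mt1 the old effect minus the young effect was −1.04 on the log2 scale (95% interval −1.43 to −0.65, adjusted p = 0.0547). For Mt2 it was −2.39 (95% interval −3.34 to −1.44, adjusted p = 0.0765). DESeq2 called both, with adjusted p-values of 0.000213 for Mt1 and 0.000261 for Mt2, where it called 182 of all 28328 genes. Leaving out YCR 3 brought the edgeR adjusted p-values to 0.0261 for Mt1 and 0.00594 for Mt2. Leaving out YAL 1 gave 0.0486 and 0.0472, but not every fit that left out 1 library called them, and at least 1 called neither. Over all genes the fit without YCR 3 called 12 and that without YAL 1 called 27, against 9 with all libraries. For Sgk1 the difference was −1.08 (SE 0.364, adjusted p = 0.385). Lifelong and short-term CR differ in length as well as in age, and the old and young libraries differ in complexity. Mt2 lay at a few CPM in both young groups.

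Refeeding was compared with CR to ask whether the levels return. In old mice Klf9 rose and Fkbp5 and Zbtb16 fell in OCRRF against OCR, so 3 of the 8 genes were called, against 3.41% of 32577 genes (0.694% higher and 2.71% lower), and 4 did not overlap between groups, against 28.3% of all genes. The median of the 8 was −0.07, beside 0.11 over all genes. OCRRF shares the OCR libraries with the comparison of OCR and OAL, so the directions in the 2 comparisons are not independent of each other, and with 2 libraries in OCRRF an exact permutation test cannot give a p under 0.133.

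Klf9 had 53.5 and 55.8 CPM in OCRRF, above all OCR libraries (34.4 to 38.2 CPM). It rose 0.54 on the log2 scale (SE 0.125, adjusted p = 0.0079), and its OCRRF mean of 54.6 CPM lay within the OAL range. Zbtb16 had 12.9 and 13.6 CPM in OCRRF, below all OCR libraries, and fell 1.65-fold (−0.72 on the log2 scale, SE 0.161, adjusted p = 0.00523). Fkbp5 had 63.2 and 69.2 CPM in OCRRF, below all OCR libraries and also below all OAL libraries. It fell by 0.42 on the log2 scale (SE 0.124) with an edgeR adjusted p of 0.0493. Each of the 3 calls was lost when 1 OCRRF library was left out, the remaining one then being assumed to vary like OCR. The adjusted p-values without OCRRF 1 were 0.451 for Fkbp5, 0.214 for Klf9 and 0.135 for Zbtb16. Without OCRRF 2 they were 0.321, 0.0717 and 0.1 in the same order, and without OCR 2 the call of Fkbp5 was lost as well (0.176). None of the 3 was called in 1 fit of all 22 diet libraries.

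The metallothionein means lay between those of OCR and OAL. Mt1 had 89.6 and 92.5 CPM in OCRRF, above every OCR library and below every OAL library. Against OCR the log2 difference was 0.42 (95% interval 0.16 to 0.69, edgeR adjusted p = 0.0656), which became a call without OCR 2 (0.0279) or OCR 3 (0.0372). Against OAL, Mt1 fell 1.54-fold (log2 fold change −0.62, SE 0.0923, adjusted p = 0.00512). Mt2 had 14.9 and 18.6 CPM in OCRRF, the lower of which was within the OCR range. Its log2 difference from OCR was 0.45 (adjusted p = 0.199, or 0.0491 without OCR 3), and it fell 1.86-fold against OAL (log2 fold change −0.90, SE 0.169, adjusted p = 0.0184). Mt1 and Mt2 were the 2 of 8 genes called in OCRRF against OAL, where 4.14% of 31816 genes were called and 2.48% were called lower. With the main scaling all 8 differences were negative, with a median of −0.21 beside 0.12 over all genes. Of the 8, 5 had both OCRRF libraries below every OAL library, where 38.6% of all genes did not overlap. The call against OAL was lost for both without OCRRF 1 (adjusted p = 0.0656 for Mt1 and 0.124 for Mt2), and for Mt2 also without OCRRF 2 (0.0583) and without OAL 4 (0.0501). Nr3c1 (107 and 107 CPM), Tsc22d3 (222 and 215 CPM) and Sgk1 (21.8 and 18.0 CPM) were not called in OCRRF against either group. For Tsc22d3 against OAL (log2 difference −0.23, adjusted p = 0.0647) this depended on the scaling, since it was called by DESeq2 (adjusted p = 0.00766) and by edgeR with DESeq2's size factors (−0.29, adjusted p = 0.0255). Over all 31816 genes these settings called 3835 and 3215.

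Scaling mattered here. When libraries were scaled only on genes that reached 5 CPM on average, the median over all genes in OCRRF against OCR moved from 0.11 to 0.24, Fkbp5 lost its call (log2 difference −0.28, adjusted p = 0.0963) and Mt1 gained one (0.56, adjusted p = 0.0104). The handling genes had a summed level of 254.6 to 294.1 CPM in OCRRF, above OCR, and 2 of the 9 rose (Jun and Junb). Of 4 megakaryocyte markers tested 3 fell, and the summed level of that list was 237.7 to 337.5 CPM in OCR and 207.8 to 208.5 CPM in OCRRF. Of 7 erythroid markers 3 rose, with a sum of 32.0 to 69.1 CPM in OCR and 52.1 to 155.2 CPM in OCRRF. The part of these markers in the result was not tested. In the lists, 6 of 20 receptor partners fell in OCRRF against OCR (Stip1, Fkbp4, Nrip1, Ptges3, Hsp90aa1 and Bag1), and among 42 tested induced genes 3 rose (Pdk4, Txnip and Cebpb) and 1 fell (Bcl6). The called shares were 30% and 9.52% of these lists, where 3.41% of all genes were called. Pdk4 reached a mean of 10.5 CPM and Txnip 2029 CPM in OCRRF.

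In young mice, refeeding gave no edgeR call among the 8 genes, while 0.0102% of 19535 genes were called. DESeq2 called 1 of the 8, Fkbp5 (adjusted p = 0.000504), where it called 268 of all 19535 genes. At an unadjusted edgeR p under 0.05 there were 3 of the 8, against 7.27% of all genes. The 3 genes whose groups did not overlap, against 5.52% of all genes, were Fkbp5, Klf9 and Tsc22d3, and the median of the 8 was 0.09.

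Fkbp5 had 88.1, 82.3, 89.0 and 97.3 CPM in YCRRF, all below the YCR libraries (124 to 154 CPM). The log2 difference was −0.66 (95% interval −0.94 to −0.39, edgeR adjusted p = 0.179). Klf9 had 71.4, 81.3, 91.7 and 69.3 CPM in YCRRF, all above the YCR libraries (49.3 to 60.2 CPM), with a log2 difference of 0.54 (95% interval 0.21 to 0.88, adjusted p = 0.35). Tsc22d3 had 417, 454, 426 and 379.7 CPM in YCRRF against 293 to 374 CPM in YCR, with a log2 difference of 0.31 (95% interval 0.06 to 0.56, adjusted p = 0.555). These 3 genes were the ones whose YCR and YCRRF values stood apart, Fkbp5 downward and the other two upward. Mt1 (18.1 to 51.6 CPM), Mt2 (1.83 to 6.88 CPM) and Zbtb16 (1.13 to 16.6 CPM) were spread widely within YCRRF. Against YAL, YCRRF gave 0 calls among the 8 with edgeR and with DESeq2, and 1 at an unadjusted p under 0.05. That was Sgk1, with 13.0, 12.5, 8.26 and 10.9 CPM in YCRRF (log2 difference 0.99, 95% interval 0.18 to 1.81). Over all genes, edgeR called 0.0% of 19334 in that comparison, DESeq2 called 15, and 3.69% had such a p. The groups overlapped for all 8 genes, where 3.22% of all genes stood apart. The summed neutrophil and granulocyte progenitor markers were 264.7 to 1610.0 CPM in YCRRF, 2.66 to 358 CPM in YCR and 3.65 to 663 CPM in YAL, and their part was not tested.

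Fkbp5 and Klf9 stood in opposite orders at both ages, in comparisons that share their CR libraries. The mean of Fkbp5 was highest under CR and lowest after refeeding in young (109, 139.8 and 89.2 CPM in YAL, YCR and YCRRF) and in old mice (74.4, 85.0 and 66.2 CPM in OAL, OCR and OCRRF). The mean of Klf9 was lowest under CR at both ages (66.1, 53.3 and 78.4 CPM in the young and 54.6, 36.2 and 54.6 CPM in the old groups). Only the old Klf9 differences and the old refeeding difference of Fkbp5 were called.

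**Figure D4:**
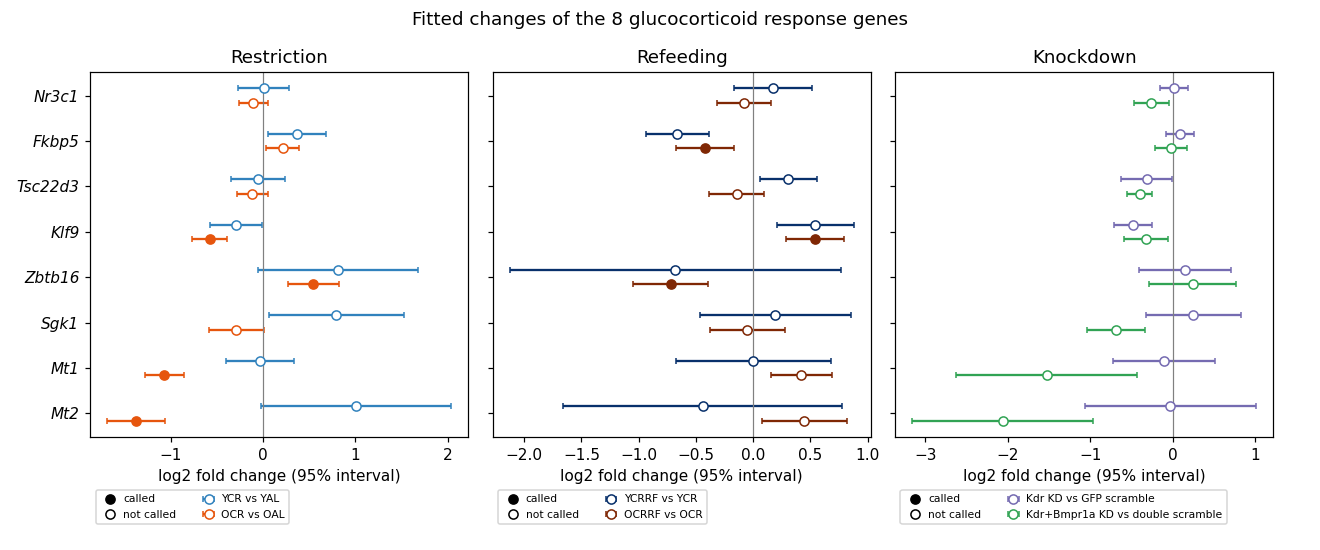
Log2 fold change of the 8 genes with its 95% interval for restriction, refeeding and knockdown; filled points are called and open points are not. Mt1 and Mt2 lie at −1.07 and −1.38 in OCR against OAL, and Fkbp5 and Klf9 lie on opposite sides of 0 in restriction and refeeding at both ages.

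Age was compared between the ad libitum groups. OAL is also the reference for OCR, so the values of the 2 comparisons are not independent. In OAL against YAL 4 of the 8 genes rose (Sgk1, Mt1, Mt2 and Zbtb16) and 2 fell (Fkbp5 and Tsc22d3), against 14.8% of 23525 genes called (6.89% higher and 7.93% lower), and 4 did not overlap between groups, against 27.5% of all genes. The median of the 8 was 0.42, beside 0.05 over all genes. Mt1 had 34.6, 28.0, 33.7 and 34.8 CPM in YAL against 116 to 150.1 CPM in OAL, 4.27-fold higher (log2 fold change 2.1, SE 0.112, edgeR adjusted p = 1.96e-06). Mt2 had 3.66, 3.02, 2.02 and 1.87 CPM in YAL against 22.3 to 37.4 CPM in OAL, 11.9-fold higher (log2 fold change 3.57, SE 0.265, adjusted p = 2.37e-05). Sgk1 was 4.39-fold higher in OAL (log2 fold change 2.13, SE 0.296, adjusted p = 0.0018). The young and old values stood apart for these 3 genes, which were called in all 8 fits that left out 1 library.

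Fkbp5 was lower in OAL without overlap (log2 fold change −0.55, SE 0.135, adjusted p = 0.0217). Tsc22d3 (−0.45, SE 0.118, adjusted p = 0.0269) and Zbtb16 (0.77, SE 0.216, adjusted p = 0.0353) overlapped between groups. These 3 calls depended on single libraries. Fkbp5 was lost without OAL 1, 2 or 4 (adjusted p 0.0690 to 0.0732), Tsc22d3 without any 1 of the 4 OAL libraries (0.0582 to 0.0872), and Zbtb16 without YAL 2, 3 or 4 or OAL 1, 2 or 3 (0.0507 to 0.115). Nr3c1 (log2 difference 0.06) and Klf9 (−0.26) were not called. Of the 20 receptor partners 6 fell in OAL and none rose, and those were Fkbp4, Hsp90aa1, Hsp90ab1, Hspa8, Stip1 and Bag1. Of 40 tested induced genes 3 rose and 2 fell, of 12 tested repressed genes 2 rose and 1 fell, and of 21 tested genes for metal response and zinc transport 3 rose and 1 fell. The called shares were 30% of the receptor partners and 12.5%, 25% and 19.0% of these lists in turn, where 14.8% of all genes were called. All 6 B and plasma cell markers were called in this comparison, 5 lower and Jchain higher in OAL, and the part of such cells in the values was not tested.

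The knockdown libraries were compared with their own scramble. Kdr, the target, had 6.04 and 6.07 CPM in the GFP scramble libraries and 1.93, 2.21, 3.28 and 2.03 CPM with Kdr shRNA. All 4 were lower (log2 difference −1.35, SE 0.251), although the edgeR adjusted p was 0.247. In the double experiment Kdr had 3.97 and 4.62 CPM with the scramble and 1.24, 0.555, 1.60 and 1.35 CPM with both shRNAs (log2 difference −1.86, SE 0.373, adjusted p = 0.272). Bmpr1a, the other target, had 5.21 and 4.43 CPM with the scramble and 4.44, 0.656, 2.22 and 0.595 CPM with the shRNAs. The first of these overlapped the scramble range, and the log2 difference was −1.29 (SE 0.717, adjusted p = 0.602).

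With Kdr shRNA alone edgeR called 0 of the 8 genes, where 0.0149% of 20098 genes were called. At an unadjusted p under 0.05 there were 2 of the 8, against 8.9% of all genes (the same 2 with a fold over 1.2, against 6.76%), and 1 did not overlap between groups, against 21.9%. DESeq2 called 1, Klf9 (adjusted p = 0.00525), where it called 302 of all 20098 genes. Klf9 had 37.4 and 44.1 CPM in the scramble and 28.1, 29.5, 30.7 and 28.6 CPM with the shRNA, all lower (log2 difference −0.48, 95% interval −0.71 to −0.25, edgeR adjusted p = 0.271). Tsc22d3 had 303 and 361 CPM in the scramble and 267, 326, 244 and 229.8 CPM with the shRNA, with 1 library in the scramble range (log2 difference −0.32, adjusted p = 0.553). The other 6 genes had log2 differences from −0.11 to 0.25. Mt1 ran from 24.1 to 50.5 CPM among the Kdr shRNA libraries, and the 95% interval of its log2 difference was −0.73 to 0.51. The summed HSC markers were 2721 to 2788 CPM in the scramble and 2211 to 2420 CPM with the shRNA, without overlap. The monocyte and macrophage markers had 31.1 to 39.1 CPM and 43.7 to 59.9 CPM in the same order, and the endothelial and stromal markers 62.0 to 65.1 CPM and 79.3 to 102.8 CPM. The endothelial and stromal sum was mostly Pecam1, with a mean of 61.2 CPM in the scramble and 88.0 CPM with the shRNA. Of 3 markers of that list tested only 1 was higher, with a median log2 difference of −0.24. The B and plasma cell markers summed to 30.4 to 38.0 CPM in the scramble and 40.6 to 69.3 CPM with the shRNA. All 5 tested of that list were higher, with a median log2 difference of 1.42. None of these markers was called, and their part in the values was not tested.

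With both shRNAs 7 of the 8 differences were negative and the median was −0.36, yet edgeR again called 0 of 8, where 0.00498% of 20072 genes were called. At an unadjusted p under 0.05 there were 6 of the 8, against 9.85% of all genes (5 with a fold over 1.2, against 6.71%), and 6 had all knockdown libraries below both scramble libraries, where 21.3% of all genes did not overlap in either direction. DESeq2 called 3, Tsc22d3 (adjusted p = 5.44e-05), Sgk1 (0.00584) and Mt2 (0.00842), where it called 332 of all 20072 genes. Mt1 had 46.9 and 55.8 CPM in the scramble and 29.7 and 6.46 CPM with the first and 22.5 and 12.7 CPM with the second Bmpr1a shRNA. All 4 were lower and spread more than 4-fold among themselves (log2 difference −1.53, 95% interval −2.63 to −0.43, edgeR adjusted p = 0.371). Mt2 had 8.03 and 5.71 CPM in the scramble and 2.08, 0.505, 2.1 and 1.89 CPM with the shRNAs in the same order, all lower (log2 difference −2.06, 95% interval −3.16 to −0.97, adjusted p = 0.287). The antisense transcript Gm45774 moved with Mt2 (log2 difference −1.78, SE 0.561).

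Sgk1 had 22.6 and 24.4 CPM in the double scramble and 17.4, 12.3, 14.0 and 14.5 CPM in the knockdown (log2 difference −0.69, SE 0.152, adjusted p = 0.287). Tsc22d3 had 287 and 291 CPM in the scramble and 234, 208, 227 and 205 CPM in the knockdown (log2 difference −0.40, SE 0.0672, adjusted p = 0.219). Klf9 (−0.32, adjusted p = 0.436) and Nr3c1 (−0.26, adjusted p = 0.435) also had all knockdown libraries below the scramble. Fkbp5, with a log2 difference of −0.02 (95% interval −0.22 to 0.17), and Zbtb16 (0.24) did not share that order. The handling genes had a summed level of 189.5 to 191 CPM in the scramble and 152 to 180.4 CPM in the knockdown, and the neutrophil and granulocyte progenitor markers 1625 to 4540 CPM and 292 to 2860 CPM. The summed monocyte and macrophage markers had 36.5 to 38.2 CPM in the scramble and 41.6 to 64.0 CPM in the knockdown. That sum was led in the knockdown by Cd68 (mean 33.4 CPM). Only 1 of the 5 markers was higher, and their median log2 difference was −0.46. The B and plasma cell markers summed to 39.5 to 41.7 CPM in the scramble and 45.5 to 59.6 CPM in the knockdown. Of 5 tested 4 were higher, with a median log2 difference of 0.82. The part of these markers was not tested. None of the 4 pathway lists had a called gene in either knockdown.

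**Figure D5:**
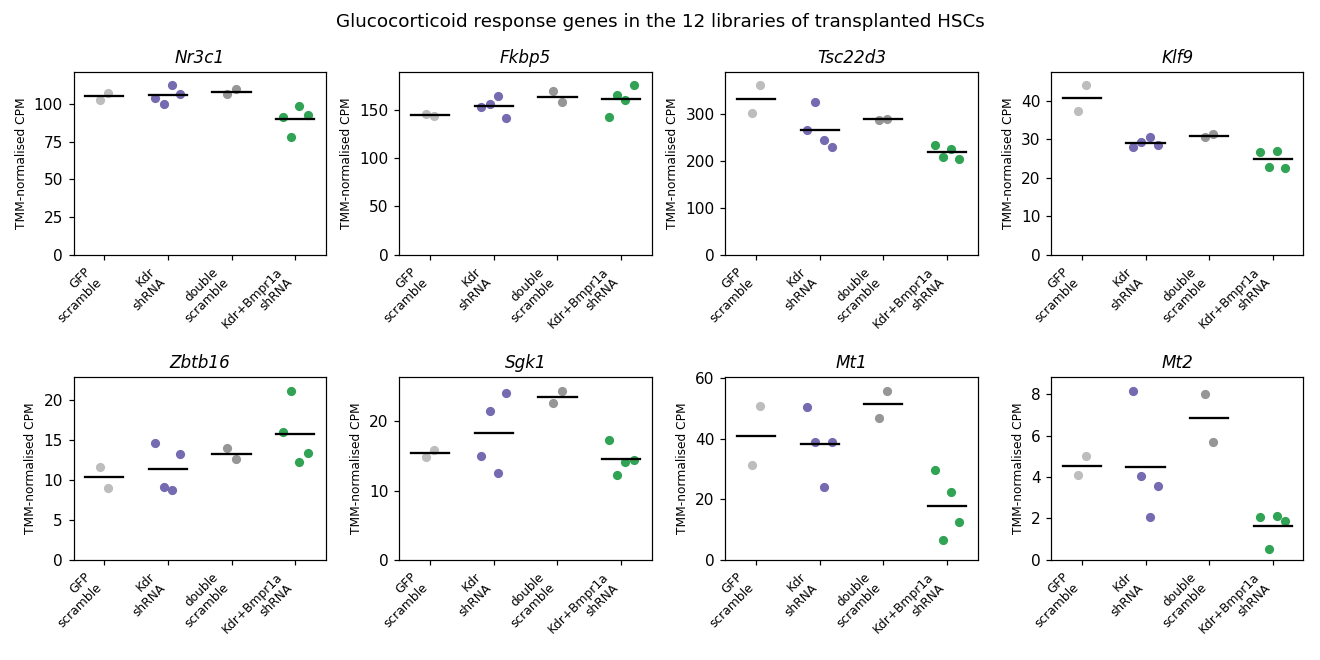
Level of each of the 8 genes (TMM-normalised CPM, linear axes from 0) in the 12 libraries of transplanted HSCs; points are libraries and black lines are group means. Mt1 lies at 46.9 and 55.8 CPM in the double scramble and between 6.46 and 29.7 CPM with Kdr and Bmpr1a shRNA.

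Chromatin at the 8 genes was read in HSCs of the old mice. Accessibility by ATAC-seq was compared between OCRRF (2 libraries) and OCR (4 libraries), with 15721335 to 19558148 counts in peaks per library; OAL was not analysed here. Of 131918 peaks 84 lay in the 8 genes or near their starts (Zbtb16 26, Nr3c1 19, Tsc22d3 11, Sgk1 11, Fkbp5 10, Klf9 4, Mt1 2 and Mt2 1), 69 of them in introns and 20 within 1000 bases of a start site. Of the 84 peaks 76 could be tested. At the study's thresholds (fold over 1.5 and mean log2 CPM over 1.5) edgeR called none, where 0.221% of 123372 peaks were called. At an unadjusted p under 0.05 there were 10, against 11.7% of all peaks, and DESeq2 called none either. The libraries of the 2 groups stood apart at 17 peaks, against 20.4% of all peaks. The peak over the Mt1 start (chr8:94178767-94179586, mm10), which contains the printed Mt1 stretch, had 25.7 and 23.2 CPM in OCRRF and 16.8, 23.2, 23.6 and 19.9 CPM in OCR. The groups overlapped (log2 difference 0.23, SE 0.112, adjusted p = 0.42). The peak over the Mt2 start (chr8:94172011-94173669) had a log2 difference of 0.09 (adjusted p = 0.797).

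The GRE letters GNACANNNTGTNC were searched in 300 bases at the centre of each peak. They occurred in 3 of the 84 member peaks (3.57%) and in 805 of all 131918 (0.61%), and all 3 member peaks lie in introns of Zbtb16. They are printed with the match in capitals, as the mm10 plus strand, while the gene runs on the minus strand. The windows are chr9:48723658-48723957, chr9:48737452-48737751 and chr9:48740133-48740432, and the last holds 2 matches that overlap.
Zbtb16 window a: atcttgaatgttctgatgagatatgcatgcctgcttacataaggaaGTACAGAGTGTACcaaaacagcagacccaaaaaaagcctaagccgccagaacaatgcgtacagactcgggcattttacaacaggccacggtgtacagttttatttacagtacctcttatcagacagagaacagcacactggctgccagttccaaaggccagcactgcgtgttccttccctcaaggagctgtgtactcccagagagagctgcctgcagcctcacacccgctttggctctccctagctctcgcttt
Zbtb16 window b: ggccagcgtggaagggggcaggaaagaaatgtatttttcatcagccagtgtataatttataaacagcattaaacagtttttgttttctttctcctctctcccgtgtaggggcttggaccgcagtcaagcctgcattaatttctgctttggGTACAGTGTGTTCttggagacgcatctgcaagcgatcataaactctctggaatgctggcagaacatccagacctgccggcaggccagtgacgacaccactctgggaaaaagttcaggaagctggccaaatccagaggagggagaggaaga
Zbtb16 window c: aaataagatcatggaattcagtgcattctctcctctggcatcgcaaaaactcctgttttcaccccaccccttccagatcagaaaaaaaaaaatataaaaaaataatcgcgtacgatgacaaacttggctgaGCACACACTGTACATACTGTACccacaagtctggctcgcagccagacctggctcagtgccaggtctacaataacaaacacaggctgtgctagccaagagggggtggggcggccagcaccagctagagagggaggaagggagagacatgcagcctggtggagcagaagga
Counts were of whole peaks, not of the windows. These peaks were weak to moderate, with 7.02 to 9.82 CPM for that at window a, 0.785 to 2.44 CPM at window b and 4.76 to 8.21 CPM at window c. Their log2 differences between OCRRF and OCR were 0.13, −0.59 and 0.28, the groups overlapped in each, and the adjusted p-values were 0.809, 0.51 and 0.604. The peak at window b lay under the mean log2 CPM of 1.5 that a call required, so it could not be called. The peaks at windows a and c showed no called difference in the comparison in which Zbtb16 RNA fell. Among the promoter windows, which matched 6 of the 8 genes, 1 of the 6 of Sgk1 held the GRE letters, at position −188 from its start site (window chr10:21993640-21993939, plus strand). Those of Fkbp5, Klf9 and Tsc22d3 held none, nor did that of Mt2, which says nothing of the receptor outside them.

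Histone marks were available as promoter signal for 2 OCR libraries each, so they describe OCR only. Each gene is represented by its transcript with the highest H3K4me3 signal, a choice that favours high values of that mark. The active mark H3K4me3 was above the median of 25127 genes (a signal of 10.5 per base) at all 8 promoters, from percentile 62.5 for Mt2 to 91.0 for Nr3c1, whose signal was 38.2 and 39.4. Over the mean of all listed transcripts Nr3c1 moved to percentile 72.2, Sgk1 from 80.5 to 54.7 and Tsc22d3 from 66.8 to 53.4, and Klf9 was then the highest at 88.7. The repressive mark H3K27me3 was below its median at 5 of the 8, at percentile 2.15 for Tsc22d3, 21.0 for Sgk1, 24.0 for Fkbp5, 27.7 for Nr3c1 and 38.7 for Klf9. It was above the median at Mt1 (58.6), Mt2 (67.7) and Zbtb16. Zbtb16 was the highest of the 8, at percentile 78.8 with a signal of 0.986 and 0.946 against a median of 0.322, and carried H3K4me3 at percentile 85.4 as well. Over the mean of all listed transcripts Sgk1 moved to percentile 78.1 for H3K27me3, Nr3c1 to 42.1 and Tsc22d3 to 13.5.

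Peaks of PU.1, the myeloid transcription factor, fell in, or within 1000 bases of a start site of, 2 of the 8 genes (25.0%), a share near that of all 12261 genes that averaged 5 CPM or more in the diet libraries (24.2%). A peak in an intron of Sgk1, near chr10:21889407-21889712, was found in both OAL libraries (8.13-fold and 6.96-fold enrichment) and in both OCR libraries (8.02-fold and 5.78-fold) and was not listed in the 2 OCRRF libraries, which had 2262 and 2817 peaks in all. Another, at the start of a shorter Sgk1 transcript, was listed in 1 OCRRF library (chr10:21994429-21994663, 7.69-fold) and 1 OCR library (chr10:21994481-21994711, 6.58-fold). Fkbp5 had 1 peak in 1 OCR library (chr17:28442718-28442960, 7.26-fold). A peak list shows only what passed the caller's threshold, and 3046 and 2900 peaks were listed in OAL against 5464 and 3852 in OCR, so an absent peak is not a measured loss.

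The genes whose pattern was most like each member were ranked by Pearson's r of log2 CPM over the 22 diet libraries, each library taken as its deviation from the mean of its age, among 12327 genes. These are descriptions of points that share libraries, depth and diet groups. Mt2 was most like Gm45774 (r = 0.93), the antisense transcript that shares its sequence, and then Hyi (0.76). Mt1 was most like Ly6e (0.83) and Eef1a1 (0.83). Klf9 was most like Orai1 (0.89) and Gm17041 (0.88), Fkbp5 like Dmwd (0.87) and Naa50 (0.86), and Zbtb16 like Dhx29 (0.92) and 4930402H24Rik (0.91). Tsc22d3 was most like Acsf2 (0.83) and Efemp2 (0.82), Nr3c1 like Polr3b (0.80) and Vps13a (0.79), and Sgk1, with the weakest likeness of the 8, like Haus5 (0.72) and Rbm45 (0.71). Some of these likenesses lay in the 12 young libraries more than in the 10 old ones. The r of Sgk1 was 0.81 in the young and 0.17 in the old libraries with Haus5, and 0.77 and 0.28 with Rbm45. That of Nr3c1 with Vps13a was 0.84 and 0.27, and that of Tsc22d3 with Efemp2 was 0.91 and 0.34.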

How the data were processed

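RNA-seq counts per gene were deposited by the authors for 34 libraries. Reads had been trimmed with cutadapt and aligned with STAR to mm10, and featureCounts had counted them over GENCODE genes. Their handling of strand and of multiply mapped reads is not given in the sources used here. The counts were tested with edgeR 4.0.16 (TMM scaling, quasi-likelihood test, Benjamini-Hochberg adjustment over all genes tested, low counts removed by filterByExpr) in R 4.3.3, each comparison on its own groups, and the interaction on the 4 ad libitum and CR groups. Genes were called at an adjusted p under 0.05 and a fold change over 1.2. DESeq2 1.42.0 served as an alternative. Other alternatives were DESeq2's size factors, TMM factors taken only from genes averaging 5 CPM or more, no filter, a minimum of 10 counts per library, a block on the replicate number, 1 joint fit per experiment, calls without the fold threshold (for the knockdowns also with an unadjusted p) and each library left out in turn. Intervals are 95% t intervals of the fit, and single values used the two-sided exact permutation test. The tests were checked on simulated counts.

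ATAC-seq counts in peaks were deposited by the authors for OCR and OCRRF and were tested in the same way, at a fold change over 1.5 and a mean log2 CPM over 1.5. The authors deposited histone signal as the mean per base in a promoter window of each transcript. The PU.1 peaks were called per library with MACS2 by the authors and deposited with fold enrichment over background, a score, and −log10 p and −log10 q. The PU.1 antibody differed between replicates 1 and 2 of each group, going by the labels and, for replicate 2, by the names the files carry. The levels computed here were CPM and RPKM on a linear scale, and log2 CPM with a prior count of 2. Gene positions were read from GENCODE M21 (mm10), 1 release before the one the authors counted with, and promoter sequences from RefSeq (GRCm38.p6), which matched 6 of the 8 genes.

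Groups came from the labels. The 8 genes were given as a list of symbols, and they and the pathway and marker lists were chosen with earlier results of these data known. Besides the 8 genes and the targets Kdr and Bmpr1a, the rule for naming was the 5 largest called changes of each pathway list under CR or knockdown among genes averaging 5 CPM or more, and the 2 genes most like each member. 1 HSC marker is not reported here. Other genes named with a count were chosen after their values were seen.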

Additional observations from a re-analysis of the deposited data

Results flagged for a closer look

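In 4 of 56 groups of 4 libraries, 1 library lay far from the other 3, by the share of the group's whole range that its gap to the nearest library takes up. Chance gives about 1 such group in 20. For Zbtb16 in YAL, library 1 had 11.4 CPM against 7.37 to 7.87 CPM in the other libraries, a gap of 0.874 of the range. For Zbtb16 in OAL, library 4 had 10.4 CPM against 15.6 to 16.1 CPM, a gap of 0.923 of the range, and the call of Zbtb16 in OCR against OAL was lost without it. For Mt1 in YAL, library 2 had 28.0 CPM against 33.7 to 34.8 CPM, a gap of 0.845 of the range. For Mt2 with Kdr and Bmpr1a shRNA, the second library of the first Bmpr1a shRNA had 0.505 CPM against 1.89 to 2.1 CPM, a gap of 0.873 of the range. That library also had the lowest Mt1 (6.46 CPM) and Kdr (0.555 CPM) of its group.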

How the results depend on the processing

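No call of the 8 genes changed sign under any alternative (0 of 230 values). Of the 656 values under alternatives other than leaving out a library, 600 kept direction and side of the threshold, 13 lost and 28 gained a call, and 15 changed sign. The settings without the fold threshold or with an unadjusted p reuse the main fit. Their values are counted in these totals although they could not change sign. Of 640 values with 1 library left out, 570 were kept, 25 lost and 8 gained a call, and 37 changed sign. The causes were not tested.

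The number of the 8 genes called moved as follows. In 1 fit of all groups it was 2 in OCR against OAL, 0 in OCRRF against OCR and against OAL, and 2 in YCRRF against YCR. DESeq2 called 1 in YCRRF against YCR, 2 in the difference between the old and young CR response, 1 with Kdr shRNA and 3 with both shRNAs. Without a filter 1 was called in YCRRF against YCR and 2 in the old minus young difference. That difference had 2 calls with at least 10 counts in every library and 1 with TMM factors from genes of at least 5 CPM. OCRRF against OCR had 4 without a filter and with at least 10 counts in place of 3, and OCRRF against OAL had 3 by DESeq2, with its size factors and with the block in place of 2. The unadjusted p gave 2 with Kdr shRNA and 5 with both shRNAs. With 1 library left out the count ranged from 0 to 5 in OCRRF against OCR, 0 to 2 in OCRRF against OAL, 3 to 6 in OAL against YAL and 0 to 2 for the old minus young difference.

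Small differences changed sign. In YCR against YAL the log2 difference of Nr3c1 was −0.0077 without a filter and −0.011 in 1 fit. In OCRRF against OCR, the TMM factors from genes of at least 5 CPM gave 0.052 for Nr3c1 and 0.082 for Sgk1, and 1 fit gave 0.0046 for Sgk1. In OCRRF against OAL, Klf9 was 0.13 with those factors, 0.037 with at least 10 counts and 0.00089 in 1 fit. Mt1 was −0.0059 without a filter in YCRRF against YCR and 0.0044 with those factors in YCRRF against YAL.

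With 1 library left out, the ranges that crossed 0 were as follows. In YCR against YAL they were −0.068 to 0.10 for Nr3c1, −0.17 to 0.037 for Tsc22d3 and −0.12 to 0.043 for Mt1. In refeeding, they were −0.24 to 0.14 for Sgk1 in OCRRF against OCR, −0.047 to 0.035 for Klf9 in OCRRF against OAL and −0.33 to 0.19 for Mt1 in YCRRF against YCR. In YCRRF against YAL they were −0.36 to 0.16 for Mt1 and −0.30 to 0.50 for Zbtb16. In OAL against YAL the range was −0.021 to 0.15 for Nr3c1, and for the old minus young difference −0.15 to 0.056 for Tsc22d3 and −0.51 to 0.16 for Zbtb16. With Kdr shRNA they were −0.015 to 0.044 for Nr3c1, −0.028 to 0.34 for Zbtb16, −0.41 to 0.29 for Mt1 and −0.50 to 0.21 for Mt2, and with both shRNAs −0.064 to 0.031 for Fkbp5.

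The replicate numbers did not pair the libraries: correlations of the deviations of 30 same-numbered pairs ran from −0.142 to 0.146, with 3 above 0.1. As a replicate block the number gave Sgk1 a call in OCRRF against OAL (log2 fold change −0.52, adjusted p = 0.0246), took that of Zbtb16 in OAL against YAL (0.0681) and called 1 ATAC peak, in an intron of Tsc22d3. Under the block Mt1 was −0.11 in YCRRF against YCR and Zbtb16 −0.27 in YCRRF against YAL, and with Kdr shRNA Nr3c1 was −0.039, Mt1 0.15 and Mt2 0.35.

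Calls over all genes moved more. OCR against OAL had 1511 and 212 in 1 fit. YCR against YAL had 68, but 452 by DESeq2, 368 without a filter, 201 in 1 fit and 7 with the block. OCRRF against OCR had 1110, but 2297 by DESeq2, 3437 with the block and 64 in 1 fit. OCRRF against OAL had 1316 (528 higher), but 3835 by DESeq2 (916 higher), 3215 with its size factors (849 higher), 808 with factors from genes of at least 5 CPM (754 higher), 2684 without a filter, 2080 with the block and 0 in 1 fit. The split in OCRRF against OCR, 226 higher of 1110, became 341 of 914 with those factors. YCRRF against YCR had 2, but 268 by DESeq2, 275 without a filter, 538 in 1 fit and 0 with the block. YCRRF against YAL had 0, but 15 by DESeq2, 40 without a filter and 9 in 1 fit. OAL against YAL had 3486 (1620 higher), but 6671 without a filter (4485 higher), 1852 with at least 10 counts, 1651 with the block (626 higher), 2656 with the factors from genes of at least 5 CPM (1872 higher) and 4754 by DESeq2 (2857 higher). The old minus young difference had 9, but 182 by DESeq2, 23 without a filter, 20 with at least 10 counts, and 3 with the block or in 1 fit. Kdr shRNA had 3, but 302 by DESeq2, 82 without a filter, 26 with the block, 5 with at least 10 counts and 0 in 1 fit. Both shRNAs had 1, but 332 by DESeq2, 19 without a filter, 15 in 1 fit and 0 with the block. The factors from genes of at least 5 CPM moved the all-gene median from 0.11 to 0.24 in OCRRF against OCR, 0.12 to 0.26 in OCRRF against OAL and 0.05 to 0.16 in OAL against YAL.

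Mt2 in young and transplanted HSCs and Zbtb16 and Sgk1 in young HSCs lay at a few CPM, and groups of 2 libraries leave wide intervals.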
